A study of Mus musculus with 2 samples.

Results

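Rab proteins form the largest family of small GTPases that direct membrane traffic. Each cycles between a GTP-bound state that sits on 1 kind of membrane and recruits effectors, and a GDP-bound state that a dissociation inhibitor can lift off into the cytosol. A lipid attached to cysteines at the end of the protein anchors it. In neurons, members of the family are known for the release and recycling of synaptic vesicles, for the sorting of receptors in endosomes and for transport along axons and dendrites.

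The Rab genes were taken by name from full-length cDNA sequencing of mouse left cerebral cortex: every annotated gene called Rab followed by a number, with up to 1 letter and 1 more digit. Of 59 such genes in the annotation, 57 had at least 1 read, among 18510 annotated genes with a read. The series holds 1 group, left cortex of female B6CASTF1/J mice at 14 days of age, an F1 cross of the C57BL/6J and CAST/EiJ strains with no treatment and no transgene, in 2 libraries made from 2 µg of RNA each. Replicate 1 can be read from its label as a pool of 3 females and replicate 2 as 1 female, although a shared library text names the pool for both, and the donor entry is the same. There was therefore no treated or mutant group, and each comparison below sets replicate 2 against replicate 1, so that its p-values weigh counting error between these libraries and not variation between animals.

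Replicate 1 held 1072344 reads on mouse models and replicate 2 held 753520. Levels are given as reads per 1000000 mouse reads (RPM). 1 read was worth 0.933 RPM in replicate 1 and 1.33 RPM in replicate 2, and a count of 0 allows up to 2.80 RPM and 3.98 RPM. RPM takes each long read as 1 molecule, an assumption that was not tested, and is not divided by transcript length. The annotated transcripts of the 47 Rab genes with at least 10 reads had mean lengths of 1158 to 9456 bases, and length and level were only weakly related across these genes (Spearman's rho -0.08, n = 47, as a description). Among cell type markers, 6 of 8 genes of myelinating oligodendrocytes were called lower in replicate 2 by the gene test described below. The summed level of the 8 was 6075 RPM in replicate 1 and 3589.8 RPM in replicate 2. The choroid plexus gene Ttr was higher in replicate 2 (25.2 and 256 RPM), while the other 2 markers of that tissue had 1 read or none. In all, 7 of 36 tested markers were called, against 0.882% of all 11339 genes tested. None of the neuronal, astrocyte, precursor, microglial, vascular or blood markers was among the 7, and the blood marker Slc4a1 had no read. The part of these shifts in any Rab value was not tested. In tissue, fewer cells of a type and less RNA per cell cannot be told apart.

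Rab proteins end in cysteines that carry the lipid anchor, and the arrangement of those cysteines differs between members. The last 5 codons and the stop codon of 4 members are shown because they stand for the arrangements found, with cysteine codons in capitals, 5′ to 3′, from GENCODE M21 transcripts on mm10. Rab3a lies at chr8:70758071-70758088, Rab2a at chr4:8606486-8606503, Rab5a at chr17:53506412-53506429 and Rab8a at chr8:72180120-72180137, all on the plus strand.
Rab3a: caggatTGTgccTGCtga
Rab2a: gggggaggcTGCTGTtga
Rab5a: cagTGTTGTagtaactga
Rab8a: cggTGCagtctcctgtga
The 57 members with reads all had at least 1 cysteine codon among their last 5 codons. 19 ended as Rab3a does, in a cysteine, another residue and a cysteine. 15 ended as Rab2a does, in 2 adjacent cysteines. In 20 a cysteine stood at the fourth codon from the end, as in Rab5a and Rab8a, and 3 (Rab34, Rab20 and Rab44) had another placement.

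Rab genes took 8880 reads in replicate 1 and 6003 in replicate 2. As a share of mouse reads this was 0.828% (Wilson, 95%: 0.811 to 0.845) and 0.797% (0.777 to 0.817), or 8124 RPM ± 222 (SD, n = 2). The intervals cover counting error only. The reads were concentrated: Rab3a, Rab2a and Rab7 held 31.0% of all Rab reads in replicate 1 and 31.5% in replicate 2, and the 10 most abundant members held 64.8% and 65.0%. The median level of the 47 members with at least 10 reads was 68.1 RPM in replicate 1 and 69.0 RPM in replicate 2 (mean 68.5 ± 0.661, SD, n = 2). Over all 11339 genes with at least 10 reads it was 30.8 and 30.5 RPM, and 37 of the 47 members lay above the median of all genes.

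**Figure D1:**
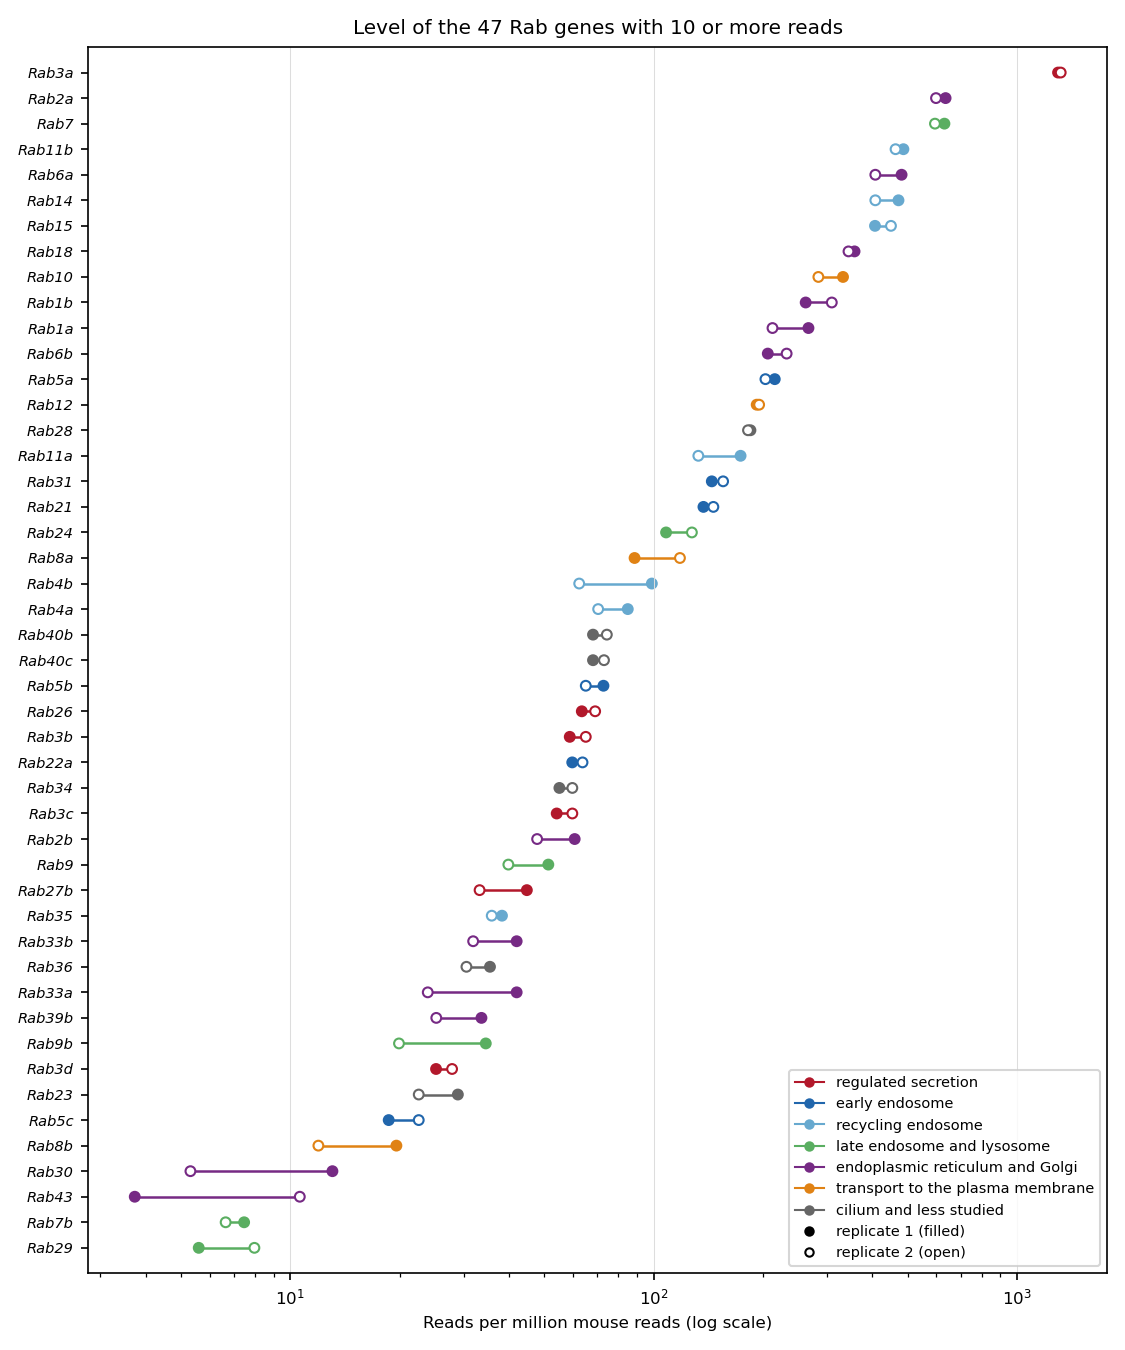
Level of each of the 47 Rab genes with 10 or more reads, in reads per 1000000 mouse reads on a log scale. Filled points are replicate 1, open points replicate 2, lines join them, and colours mark the role groups. Rab3a stands alone at the top at 1297 and 1319 RPM, and the distance between the libraries widens among the genes with few reads at the bottom.

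The Rab genes of regulated secretion were led by Rab3a, the main Rab of synaptic vesicles, at chr8:70754679-70758677 on the plus strand. Its 1391 reads in the first library came to 1297 RPM and its 994 reads in the second to 1319 RPM, a mean of 1308 RPM ± 15.5 (SD, n = 2). Its paralogs were far lower in both libraries. Rab3b had 58.7 and 65.0 RPM, Rab3c 54.1 and 59.7 RPM, and Rab3d, best known from secretory granules of gland cells, 25.2 and 27.9 RPM. Rab26, which acts on vesicles and granules, had 63.4 and 69.0 RPM. Rab27b, which docks secretory vesicles, had 44.8 and 33.2 RPM. Its paralog Rab27a was close to absent, with 0 and 2 reads, and Rab37 had 1 and 1. The 8 genes together made up 18.6% of Rab reads in replicate 1 and 19.8% in replicate 2.

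Members of the endoplasmic reticulum and Golgi formed the largest group, with 13 genes and 2327 RPM ± 108 (SD, n = 2), or 29.0% and 28.3% of Rab reads. Rab2a (chr4:8535644-8607778, plus strand), which acts between the Golgi and the endoplasmic reticulum, had 682 and 451 reads (636 and 599 RPM). Rab6a (chr7:100607410-100641268, plus strand), a Golgi Rab for retrograde traffic and vesicle exit, had 516 and 307 reads (481 and 407 RPM). Rab18, a Rab of the endoplasmic reticulum and lipid droplets, had 383 and 259 reads (357 and 344 RPM). The paralogs Rab1b and Rab1a, which carry cargo from the endoplasmic reticulum to the Golgi, came next: Rab1b had 281 and 233 reads (262 and 309 RPM), and Rab1a had 286 and 160 (267 and 212 RPM). Rab6b, the neuronal paralog of Rab6a, had 221 and 175 reads (206 and 232 RPM). Rab2b, Rab33b, Rab33a and Rab39b lay between 23.9 and 60.6 RPM in every library. Rab30 had 14 and 4 reads and Rab43 had 4 and 8, and Rab39 had 0 and 2.

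Among Rabs of the recycling endosome, which returns receptors to the cell surface, Rab11b and Rab14 led. Rab11b (chr17:33742484-33760530, minus strand) had 522 and 349 reads (487 and 463 RPM), Rab14 506 and 307 (472 and 407 RPM), and Rab15 436 and 339 (407 and 449.9 RPM). Rab11a, the broadly expressed paralog of Rab11b, was lower, at 186 and 100 reads (173 and 133 RPM). Rab4a had 84.9 and 70.3 RPM, Rab4b 98.8 and 62.4 RPM, and Rab35 38.2 and 35.8 RPM. This group of 7 made up 21.3% and 20.4% of Rab reads. Rab25, an epithelial relative of Rab11, had no read in either library.

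The early endosome group had 696 and 496 reads, and its most abundant member was Rab5a, which drives fusion of early endosomes, with 231 and 153 reads (215 and 203 RPM). Rab31 had 155 and 117 reads (145 and 155 RPM) and Rab21, a Rab of integrin uptake, had 147 and 110 (137 and 146 RPM). Rab5b lay at 72.7 and 65.0 RPM, Rab22a at 59.7 and 63.7 RPM, and Rab5c at 18.7 and 22.6 RPM. Rab20 had 0 and 2 reads, and the epithelial Rab17 had 1 and 0. The late endosome and lysosome group had 904 and 602 reads, most of them on 1 gene: Rab7 (chr6:87999106-88045270, minus strand), which takes cargo to lysosomes, had 677 and 448 reads (631 and 595 RPM). Rab24, a Rab linked to autophagosomes, had 116 and 96 reads (108 and 127 RPM). Rab9 and Rab9b, which act in the return from late endosomes to the Golgi, had 51.3 and 39.8 RPM and 34.5 and 19.9 RPM. Rab7b had 8 and 5 reads, Rab29 had 6 and 6, and the melanosome Rabs Rab32 and Rab38 had 4 and 0 and 1 and 2.

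Of the Rabs that serve transport to the plasma membrane, Rab10 had 356 and 214 reads (332 and 284 RPM), Rab12 206 and 147 (192 and 195 RPM), and Rab8a 95 and 89 (88.6 and 118 RPM). Rab8b had 21 and 9 reads and Rab13, a Rab of epithelial junctions, had 4 and 4. In the remaining group of ciliary and less studied members, Rab28, known from photoreceptor cilia, led with 198 and 137 reads (185 and 182 RPM). Rab40b and Rab40c, which carry a domain that recruits a ubiquitin ligase, had 68.1 and 74.3 RPM and 68.1 and 73.0 RPM. Rab34 and Rab23, both with roles in primary cilia, had 59 and 45 reads and 31 and 17 reads. Rab36 had 38 and 23, Rab42 had 3 and 2, and Rab44, a large Rab of immune cells, had 1 and 0. Rab19 had no read in either library.

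The levels fell in steps, with neighbours inside a step not resolved. Rab3a exceeded every other member in both libraries by far more than the SD of any of them. Rab2a (617 RPM ± 26.5, SD, n = 2) and Rab7 (613 RPM ± 26.0) differed by less than their spread. The same held for Rab11b (475 ± 16.7), Rab6a (444 ± 52.2), Rab14 (439.6 ± 45.6) and Rab15 (428 ± 30.6), where each neighbour lay within the larger SD of the next. Rab2a and Rab7 lay above all 4 of these genes in both libraries, and Rab18 (350.4 ± 9.50) lay below them in both. Of the 57 members, 10 had fewer than 10 reads and were not tested: Rab13, Rab17, Rab20, Rab27a, Rab32, Rab37, Rab38, Rab39, Rab42 and Rab44.

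Close paralogs split their reads unequally in some subfamilies and evenly in others. Coding sequences of the 18 paralog pairs compared were 64.0% to 78.4% identical along their alignments, so reads that hold coding sequence can tell those pairs apart. The Rab7, Rab27 and Rab39 pairs were not aligned, and reads without coding sequence are not covered. Rab7 held 98.8% and 98.9% of the reads of its pair with Rab7b. Rab2a held 91.3% and 92.6% against Rab2b, and Rab3a held 90.4% and 89.6% of the reads on 4 Rab3 genes. Rab5a held 70.2% and 69.9% of Rab5 reads, and Rab11b 73.7% and 77.7% of Rab11 reads. The Rab40 pair split almost evenly, with Rab40b at 50% and 50.5%, and so did the Rab4 pair, with Rab4a at 46.2% and 53.0%.

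In 1 of the 14 subfamilies, Rab1, the intervals of the libraries did not overlap. The same count was not made over other genes, so 1 of 14 has no background to be read against. The share of Rab1 reads on Rab1a was 50.4% (46.3 to 54.5, Wilson) in the first library and 40.7% (36.0 to 45.6) in the second. Rab6a held 70.0% of Rab6 reads (66.6 to 73.2) and 63.7% (59.3 to 67.9), with intervals that overlapped. Most reads of Rab6b have a single exon, and with annotated transcripts alone, a choice made after seeing the data, Rab6a held 477 of 499 reads (95.6%) and 279 of 290 (96.2%). The share of Rab8a moved from 81.9% (73.9 to 87.8) to 90.8% (83.5 to 95.1), that of Rab33a from 50% to 42.9% and that of Rab9 from 59.8% to 66.7%, all with overlapping intervals. No test of these shares was run.

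**Figure D2:**
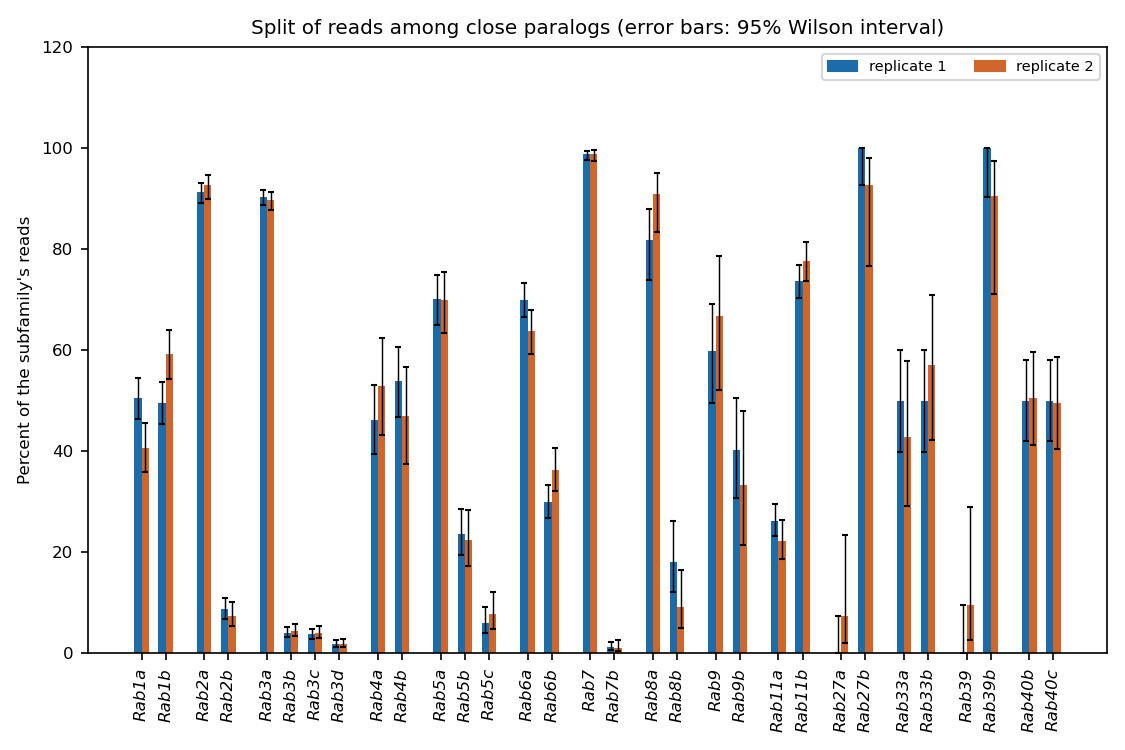
Percent of a subfamily's reads taken by each of its genes in replicate 1 (blue) and replicate 2 (orange), for 14 subfamilies; bars start at 0 and error bars are 95% Wilson intervals, which cover counting error only. Rab2a, Rab3a and Rab7 take about 90% or more of their subfamilies, while the Rab1, Rab4, Rab33 and Rab40 genes lie near an even split.

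No Rab gene was called different between the libraries. In the exact binomial test of each gene's reads against the library totals (two-sided, Benjamini-Hochberg adjustment over 11339 genes, adjusted p under 0.05), 0 of 47 members were called, against 0.882% of all genes tested (41 higher and 59 lower in replicate 2). 6 members had an unadjusted p under 0.05, which is 12.8% of the members and compares with 8.60% of all genes. The median log2 ratio of replicate 2 to replicate 1 was -0.08 over the members and -0.0035 over all genes tested, with 27 members lower and 20 higher in replicate 2.

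The 6 members with the smallest p all had lower values in replicate 2. Rab4b, which recycles receptors from early endosomes, had 106 and 47 reads (98.8 and 62.4 RPM), a log2 ratio of -0.66 (exact binomial p = 0.00843, adjusted p = 0.285). Rab1a had a log2 ratio of -0.33 (exact p = 0.0210, adjusted p = 0.420). Rab6a had a log2 ratio of -0.24 (exact p = 0.0214, adjusted p = 0.426). The others were Rab11a (log2 ratio -0.38), Rab33a, with 45 and 18 reads (-0.79), and Rab14 (-0.21), with adjusted p-values of 0.495, 0.552 and 0.555. Under TMM scaling or DESeq2 size factors the number of members with an unadjusted p under 0.05 went from 6 to 4. With annotated transcripts alone it was 0. A p above the threshold does not show that the levels were equal. The largest ratios in either direction, -1.18 for Rab30 and 1.43 for Rab43, belonged to genes with 18 and 12 reads in all.

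**Figure D3:**
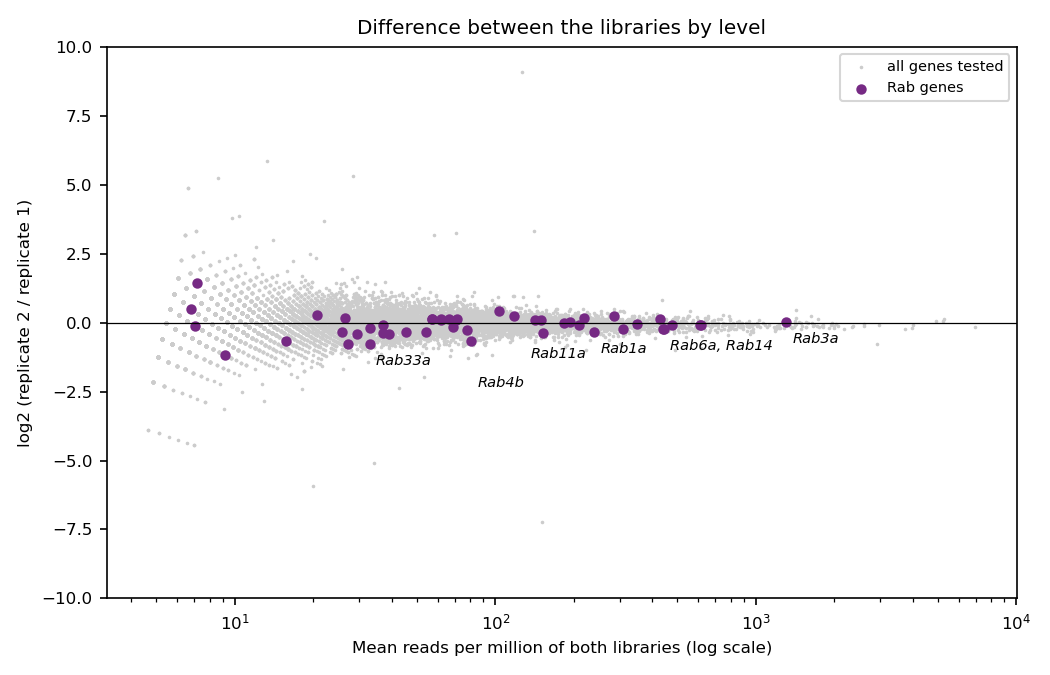
log2 ratio of replicate 2 to replicate 1 (0.5 reads added to each count) against the mean level of both libraries on a log scale, for all 11339 genes tested (grey) and the 47 Rab genes (purple). Most Rab genes lie close to 0 and inside the grey cloud; Rab4b and Rab33a lie at -0.66 and -0.79.

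Most Rab genes used 1 dominant splice chain. A splice chain is the full series of introns of a multi-exon read. 34 members had at least 20 reads with a full chain in each library. In 34 of these 34 the most frequent chain was an annotated, protein-coding transcript. Its share of full-chain reads was at least 90% in both libraries in 21 of the 34, against 32.8% of all genes with enough reads, and the median share was 94.5% for members and 84.5% for all genes. Among annotated Rab transcripts, 99.7% and 99.4% of reads fell on protein-coding transcripts, 12 and 7 reads on transcripts annotated for nonsense-mediated decay and 9 and 17 on retained-intron transcripts. In 24 of the 34 members at least 90% of full-chain reads also carried the coding introns of the leading transcript, whatever their untranslated ends (46.7% of all 4610 genes with a coding leading transcript).

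**Figure D4:**
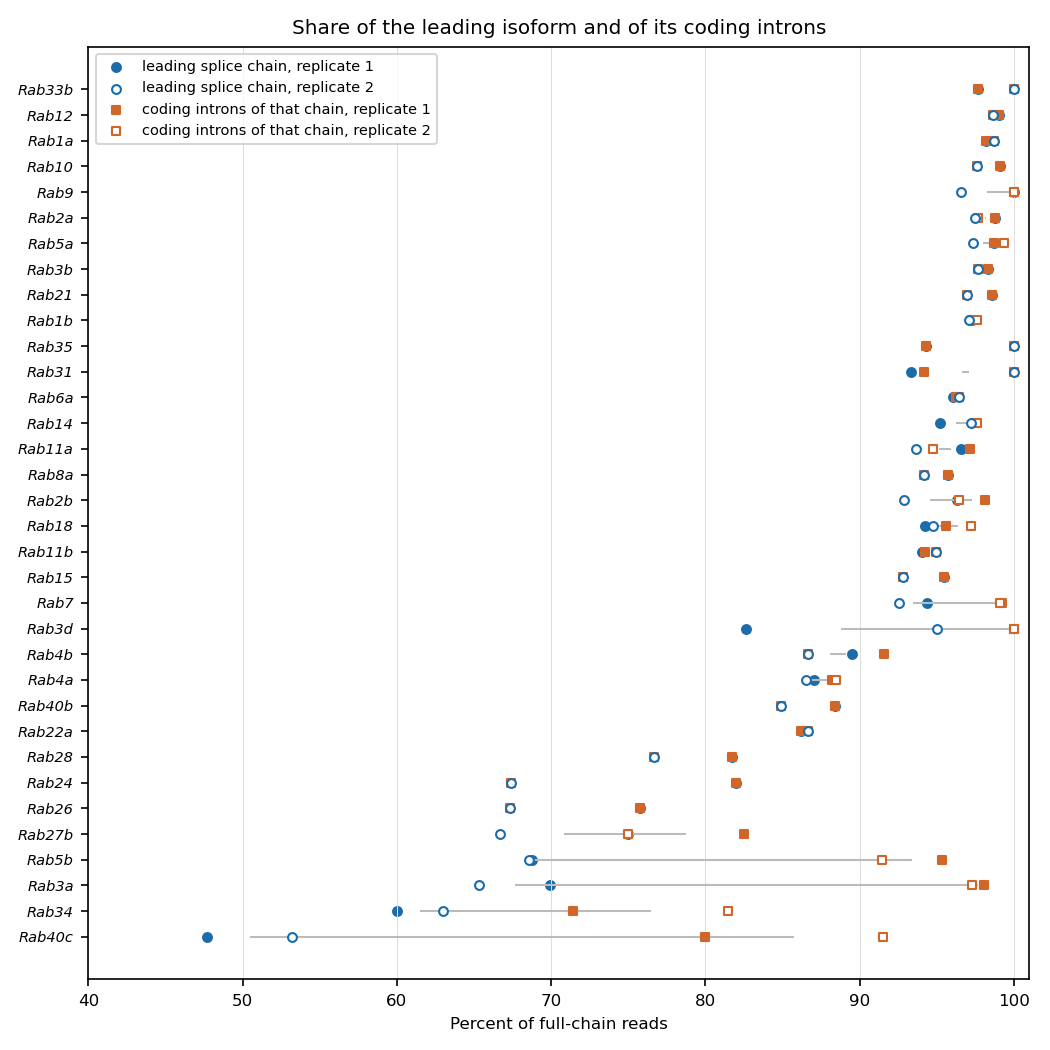
Percent of full-chain reads on the leading splice chain (blue circles) and on any chain with the coding introns of that transcript (orange squares), for 34 Rab genes; filled symbols are replicate 1, open symbols replicate 2, and the x axis starts at 40%. In Rab3a, Rab5b and Rab40c the squares lie well to the right of the circles; in Rab24, Rab26 and Rab28 circles and squares coincide below 85%.

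The share of the leading chain was not called different between the libraries in any of the 34 members (two-sided Fisher's exact test, Benjamini-Hochberg adjustment over 4865 genes), and 0.247% of all genes were called. Of the 34 members, 3 had an unadjusted p under 0.05, beside 247 of the 4865 genes tested. For Rab24, the share of the leading chain was 91 of 111 reads (82.0%) and 60 of 89 (67.4%). In Rab31 it was 93.3% (112 of 120) and 100% (87 of 87). In Rab3a it was 70.0% (894 of 1278) and 65.3% (599 of 917). The exact unadjusted p-values were 0.0207, 0.0219 and 0.0230, and each adjusted p was 0.840.

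2 of the 34 members, Rab3a and Rab40c, had a second chain at 20% or more in both libraries, against 14.3% of all genes. In Rab3a, the leading transcript Rab3a-201 had 894 and 599 reads. The second chain, not in the annotation, had 311 and 238 reads (24.3% and 26.0%), or 290.0 and 316 RPM, beside 332 and 284 RPM for the whole of Rab10. It differs at the end of the first, noncoding exon. That exon ended at chr8:70754869, 1 base past its end in the annotated Rab3a-204 (chr8:70754868) and 6 bases past its end in Rab3a-201 (chr8:70754863), and the other introns were those of Rab3a-201. No read was assigned to Rab3a-204 itself in either library. The submitters' classes for this chain differed between the libraries (a new combination of annotated sites in replicate 1, a new site in replicate 2), and it was matched here by its intron positions. Because the change lies before the start codon, 98.0% and 97.3% of Rab3a full-chain reads kept the coding introns of Rab3a-201.

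Rab40c, a substrate adaptor of a ubiquitin ligase, was the most evenly split member. The chain shared by Rab40c-201 and Rab40c-206 had 31 and 25 reads (47.7% and 53.2%). The chain of Rab40c-207 had 20 and 17 (30.8% and 36.2%). Both are annotated with the same coding sequence, so this choice lies in the untranslated part. At a threshold of 10% for the second chain, Rab5b, Rab22a, Rab27b and Rab28 joined them. In Rab5b the second chain, with a new splice site 157 bases from the nearest annotated one, had 16 and 5 reads. Of the full-chain reads of Rab5b, 95.3% and 91.4% kept the coding introns.

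The choice between protein isoforms rested on few members. Rab6a has a pair of exons of the same length, one after the other, of which an annotated transcript holds 1 or the other. Rab6a-201 uses chr7:100629838-100629943 and Rab6a-202 uses chr7:100629666-100629771, both on the plus strand. They are shown 5′ to 3′ with the bases that differ between them in capitals (30 of 106).
Rab6a-201 exon: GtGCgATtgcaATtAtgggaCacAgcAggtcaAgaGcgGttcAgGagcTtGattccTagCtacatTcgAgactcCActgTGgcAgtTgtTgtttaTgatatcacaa
Rab6a-202 exon: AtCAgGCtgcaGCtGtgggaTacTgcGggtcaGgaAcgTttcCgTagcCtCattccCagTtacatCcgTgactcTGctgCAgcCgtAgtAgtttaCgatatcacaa
Despite 30 base differences, translation of both transcripts gives proteins of 208 residues that differ at 3. The form with the downstream exon, Rab6a-201, dominated: it had 463 and 271 reads (96.1% and 96.4%), and Rab6a-202 had 12 and 6 (2.49% and 2.14%). The libraries gave nearly the same share, and the minor form was present in both.

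The coding sequence of Rab28 has alternative ends. That of Rab28-201 ends in the segment at chr5:41625773-41625862 and that of Rab28-203 in the segment at chr5:41626995-41627081, both on the minus strand. The segment of Rab28-203 lies in an internal exon, and this transcript has 7 introns against 6 in Rab28-201. The last coding bases of each, without the stop codon, are shown with the cysteine codon among the last 5 codons in capitals, since the ends of both carry the anchor cysteine.
Rab28-201 end: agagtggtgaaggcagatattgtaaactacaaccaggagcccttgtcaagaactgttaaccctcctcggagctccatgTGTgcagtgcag
Rab28-203 end: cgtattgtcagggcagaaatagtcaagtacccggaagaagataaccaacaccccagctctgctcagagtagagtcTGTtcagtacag
The segments of 90 and 87 bases both place a cysteine at the fourth codon from the end. Rab28-201 had 161 and 105 reads (81.7% and 76.6%) and Rab28-203 had 23 and 17 (11.7% and 12.4%). Another Rab28 chain, not in the annotation, joined annotated sites around the 89-base coding exon at chr5:41698390-41698478 and had 8 and 9 reads.

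Over all internal annotated exons, 32 exons of 12 members were used in 5% to 95% of at least 20 spanning reads per library. None was called different between the libraries (Fisher's exact test, adjusted over 8507 exons of all genes, of which 0.893% were called). Of the 32, 6 had an unadjusted p under 0.05, beside 680 of the 8507 exons of all genes. 4 of these 6 were in Rab24. Those beside the same intron share reads and are not separate events, while the exon at chr13:55321390-55321458 lies apart. The 51-base exon of Rab24 at chr13:55320503-55320553 was held by 97 of 115 reads (84.3%) and then by 66 of 96 (68.8%, exact p = 0.00840, adjusted p = 0.303). No Rab24 read skipped it. Instead, an annotated exon of 342 bases (chr13:55320503-55320844) that also takes in the intron beside it was present in 10.5% and 21.9% of reads, and the chain that keeps this intron and all other Rab24 introns had 10 and 17 reads. Rab24 overlaps Prelid1 on the opposite strand, which had 81 and 72 reads over Rab24 exons.

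The other exons with intermediate use were mostly exons whose boundaries moved or whose flanking introns stayed in, not skipped exons. The 228-base coding exon of Rab3a (chr8:70755856-70756083) was used in its annotated form by 95% and 92.1% of 1281 and 920 reads (exact p = 0.00549, adjusted p = 0.252), and 0 reads in either library skipped it. Rab26 had 6 such exons and Rab34 had 9, and no exon of either was skipped by more than 3 reads in a library. Rab26 shares exon sequence on the same strand with Traf7, which had 60 and 30 reads over Rab26 exons, so reads of these genes may be counted in either. An 87-base exon in the noncoding start of Rab7 (chr6:88015632-88015718) was present in 30 of 653 reads (4.59%) and 27 of 431 (6.26%). When any overlapping exon counted as use, 4 alternative exons in 3 members were left.

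Unannotated chains were numerous and mostly rare. Rab genes had 297 unannotated full chains, of which 40, in 21 genes, had at least 2 reads in 1 library and 1 in the other (13.5%; 11.2% for all genes). Of these 40, 14 used annotated introns alone in a new combination and 5 joined annotated sites in a new pairing. Another 5, all of them in Rab3a, had new sites that all lay within 2 bases of an annotated site. Most of these 5 shared the new end of the first exon described above. The other 16 had a site farther away. The 5 most abundant were those of Rab3a (311 and 238 reads), Rab7 with the 87-base exon (28 and 23), Rab24 (10 and 17), Rab5b (16 and 5) and Rab28 (8 and 9).

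Most Rab reads fell on annotated transcripts, 83.2% in the first library and 81.2% in the second, against 72.7% and 71.2% over all annotated genes. Reads that match only a part of an annotated transcript took 5.33% and 6.75% of Rab reads (10.6% and 11.6% over all genes). Of these 473 and 405 reads, 197 and 161 were single-exon reads of Rab6b. Reads that match no splice pattern, which the submitters class as Genomic, took 3.92% and 3.45% (6.04% and 6.61%). Single-exon reads of Rab3a were classed as Genomic in replicate 1 (88 reads) and as partial matches in replicate 2 (50 reads). The shares of these 2 classes are therefore not like for like between the libraries. New combinations of sites took 5.78% and 2.50% and new sites 1.78% and 6.06%, and the class given to the Rab3a chain above moved between these classes with the library.

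Single-exon reads were the majority of reads in Rab6b and Rab3c, and a minority in the other members plotted. They made up 7.09% and 7.95% of Rab reads, against 11.1% and 11.9% over all genes. In Rab6b, 197 of 221 reads (89.1%) and 161 of 175 (92.0%) had a single exon, and only 22 and 11 reads fell on annotated transcripts. All 197 and 161 single-exon reads of Rab6b were on models inside its last exon, which is 4095 bases long. In Rab3c, with a last exon of 7816 bases, single-exon reads were 33 of 58 (56.9%) and 28 of 45 (62.2%). Rab3a had more single-exon reads in number (88 and 50), as had Rab15 (43 and 43), but as smaller shares of their reads. By share, Rab31 followed among genes with 20 or more reads in each library, with 29 and 29 reads (18.7% and 24.8%). Across the 47 members tested, the single-exon share and the length of the last exon had a Spearman's rho of 0.36, as a description of genes that share 2 libraries.

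**Figure D5:**
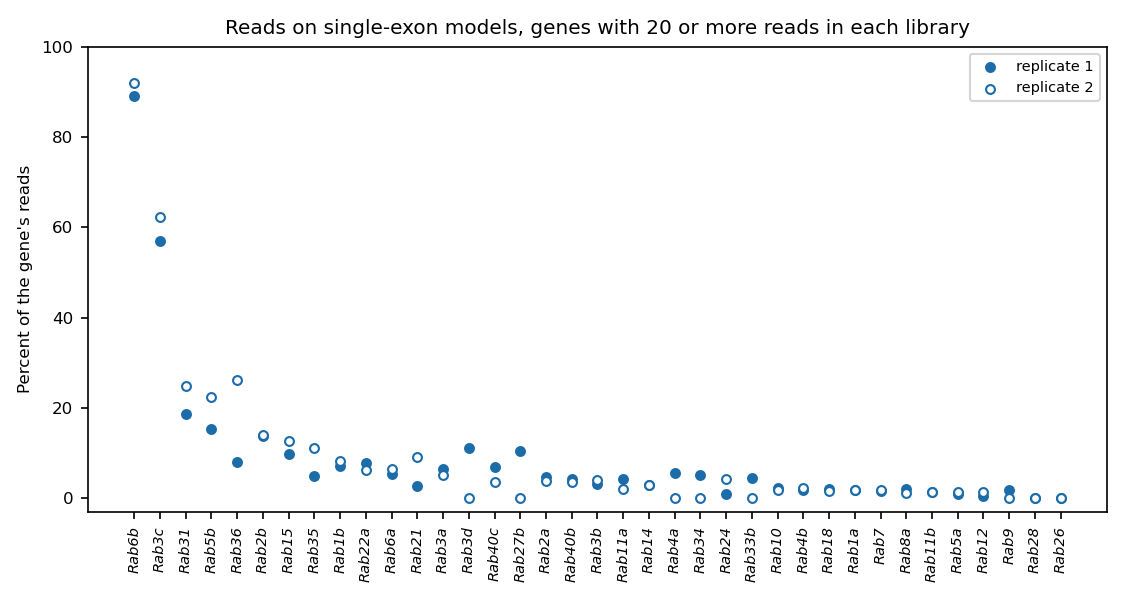
Percent of each gene's reads on single-exon models in replicate 1 (filled) and replicate 2 (open), for the 37 Rab genes with 20 or more reads in each library. Rab6b and Rab3c lie above 55% in both libraries, and 27 of the 37 genes lie below 10% in both.

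Models on the opposite strand that overlapped a member's exons by at least 50 bases were of 2 kinds. Those classed as antisense had 150 and 113 reads over 32 members, and those of other annotated genes had 129 and 152. Of the first kind, Rab30 and Rab31, on separate chromosomes, had the most, with 47 and 26 reads each. Rab2b overlaps Tox4 on the opposite strand, whose models over Rab2b exons had 0 reads in replicate 1 and 55 in replicate 2. The use of strand in counting is not given in the sources used here.

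Genes that act on Rab proteins were measured beside them, from a list of 94 genes: 91 had a read, 76 had at least 10 reads, and 0 of the 76 were called different between the libraries (5 with an unadjusted exact p under 0.05), beside 0.882% of all genes called and 8.60% under 0.05. Their median log2 ratio was -0.08. Gdi2, a dissociation inhibitor that extracts Rab proteins from membranes, had 234 and 174 reads (218 and 231 RPM). Rabac1, which helps to return Rab proteins to membranes, had 117 and 118 RPM. The subunits Rabggta and Rabggtb of the enzyme that attaches the lipid had 54.1 and 47.8 RPM and 53.2 and 47.8 RPM.

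Among exchange factors, which load GTP, Dennd5a (148 and 167 RPM), Sbf1 (148 and 126 RPM) and Madd, an activator of Rab3 (82.1 and 71.7 RPM), led. Among GTPase-activating proteins, which end the active state, Evi5l (114 and 173 RPM), Tbc1d10b (108 and 111 RPM) and Sgsm3 (97.0 and 115 RPM) led. Evi5l had 122 and 130 reads, a log2 ratio of 0.60 and the smallest p of the list (exact binomial, adjusted p = 0.0916). Without reads of the class Genomic, Evi5l passed the test with a log2 ratio of 0.66 (exact binomial, adjusted p = 0.0375). It passed under none of the other settings run. There the adjusted p of the exact binomial test lay between 0.0620 (50 or more reads) and 0.554 (annotated transcripts alone). Among effectors, Rph3a, which binds Rab3 on synaptic vesicles, had 156 and 146 RPM, Rab11fip4 93.3 and 81.0 RPM and Exoc6, a subunit of the exocyst, 82.0 RPM ± 1.44 (SD, n = 2). The effectors Sytl1, Sytl5 and Micall2 had no read in either library. The summed level of the list was 4599 RPM in replicate 1 and 4447 RPM in replicate 2.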

How the data were processed

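Long reads from 2 libraries of mouse left cerebral cortex were matched by the authors to transcript models on mm10 with GENCODE M21, and the deposited values are raw counts of reads per model, per the file headers. No source used here names the aligner, which is thus not stated. The source field of the deposited model files names TALON. The members and lists were chosen with earlier results of these data known. Reads were summed per gene over all classes; spike-ins (1.37% and 1.16% of reads) were left out, and 24556 of 24556 annotated models matched M21 by ID and exons. With 1 group, no edgeR or DESeq2 test of a condition could be made; their factors were used as alternative scalings (edgeR 4.0.16, DESeq2 1.42.0).

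Genes with 10 or more reads were tested with an exact binomial test, and isoform and exon shares with Fisher's exact test (scipy 1.17.1), each with Benjamini-Hochberg adjustment over all genes or exons tested. The test scripts were checked on simulated data. log2 ratios have 0.5 reads added. Chains were matched between libraries by intron positions. Isoform tests needed 20 full-chain reads and exon tests 20 spanning reads per library. Sequences come from the M21 transcripts, and coding sequences were aligned with Biopython 1.88. Named genes are all members, by role; full statistics go to members past a test or, with none, to the 3 of smallest p, the 15 exons with most reads, the 5 most abundant unannotated chains and the 3 most abundant regulators of each class, with those at 0; 1 regulator and 1 exon are not reported here. Rab11a, Rab33a, Rab14, the antisense loci and other overlaps were chosen after their values were seen. Alternatives changed scaling, read classes, filters, pseudocount and thresholds, or left out 1 library.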

Additional observations from a re-analysis of the deposited data

How the results depend on the processing

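The count of 0 Rab genes called between the libraries was the same under each of the 6 alternatives run for it (TMM, DESeq2 size factors, annotated transcripts, no Genomic reads, no filter, 50 reads or more), with 0 to 6 members at an unadjusted exact p under 0.05. The median log2 ratio of the members ranged from -0.08 to -0.04. Over all genes, 100 calls became 35 with annotated transcripts alone and 176 (of 10604 tested) without Genomic reads; the cause was not tested. Without Genomic reads, 2 regulators were called, Evi5l and Rab11fip4; the submitters' class for single-exon reads inside the last exon of Rab11fip4 differs by library (68 Genomic in replicate 1, 39 incomplete splice match in replicate 2), so this setting removes them from replicate 1 alone. The class of single-exon reads of Rab3a also differs by library (88 Genomic in replicate 1, 50 incomplete splice match in replicate 2). Leaving out Genomic reads removes those of replicate 1 alone. The median level of the members was 83.3 RPM with annotated transcripts and 72.4 RPM without Genomic reads, and ranged from 68.1 to 69.0 RPM with either library left out. Rab genes made up 1.02% of annotated-transcript reads, and 0.797% to 0.828% of mouse reads with either library left out. The share on annotated transcripts ranged from 81.2% to 83.2%. With 2 libraries, leaving out 1 gives the value of the other, so these ranges only repeat the values per library. 1 member had a second isoform when only annotated chains counted and 6 at a threshold of 10%. 21 unannotated chains had 2 or more reads in each library. No paired analysis was possible because the series has 1 group. With 2 libraries and 1 read worth about 1 RPM, differences among members with few reads could not be resolved.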
